A study of Mus musculus with 4 samples.

Results

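CpG clusters that had low methylation in every cell state of the study numbered 6611 of the 14973 autosomal clusters that could be measured, or 44.2%. They were chosen by measured levels. A cluster was a run of at least 10 cytosine positions, each with at least 5 calls in all 4 libraries and each less than 100 bp from the next, and an unmethylated cluster was one whose pooled level, methylated calls over all calls, was under 10% in each of the 4 libraries. The remaining 8362 clusters are called other clusters.

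The study compared dopaminergic (DA) neurons made from induced pluripotent stem cells (iPSCs) with their counterparts from the embryo, by reduced representation bisulfite sequencing (RRBS), in which the restriction enzyme MspI cuts DNA at CCGG and 40 bases are read from the cut. The iPSCs carried the Pitx3 Gfp/+ allele and had been made from embryonic fibroblasts with retroviral Oct4, Klf4, Sox2 and cMyc. The iPSC-DA neurons (Pitx3 Gfp/+) were sorted by PITX3-GFP after 4 weeks of differentiation on stromal feeder cells, and the mesodiencephalic dopaminergic (mdDA) neurons (Pitx3 Gfp/+) were sorted the same way from E14.5 embryos. The NESTIN-GFP precursors, labelled as Nestin-GFP neurons, were differentiated in culture from iPSCs and collected at day 14 of differentiation. Their iPSCs came from a separate reporter strain, Nestin Gfp/+, so that stage and strain cannot be told apart in that library. Each condition had 1 library, and no value has a replicate error or a test. The libraries held 31419979 calls for NESTIN-GFP precursors and 68545752 to 79648099 for the others. Methylation calls carry no RNA, so the cell type labels were not checked against marker expression.

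In mammals most cytosines followed by guanine (CpGs) are methylated, and the CpG-rich stretches known as CpG islands, many of them at gene starts, are the main exception. Proteins with a CXXC domain bind unmethylated CpGs there and bring histone methyltransferases or Polycomb complexes. Islands of housekeeping genes usually stay free of methylation through development, while islands of developmental regulators can gain it in cultured cells. A cluster here is a stretch of covered CpGs and not a CpG island called from the genome.

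To show what the clusters look like as DNA, the 250 bases before the RefSeq start of 8 genes are printed, 4 whose promoter lay on an unmethylated cluster and 4 whose promoter lay on another cluster. Capitals mark the letters of CpGs that were covered in the cluster, C where the printed strand was read and G where the opposite strand was read. Sequences are RefSeq's (GRCm38.p6), each written 5′ to 3′ on the strand of its gene, and coordinates are those of the deposited files, whose chromosome lengths fit NCBIM37 (mm9). In the unmethylated group, Psmc6 encodes an ATPase of the proteasome (chr14:45949249-45949498, plus strand), Taf9 a subunit of general transcription factor TFIID (chr13:101421312-101421561, plus strand), Kmt2a a CXXC-domain histone H3 lysine methyltransferase (chr9:44689373-44689622, minus strand) and Nr4a2 the transcription factor NURR1 of DA neurons (chr2:56976415-56976664, minus strand).
Psmc6: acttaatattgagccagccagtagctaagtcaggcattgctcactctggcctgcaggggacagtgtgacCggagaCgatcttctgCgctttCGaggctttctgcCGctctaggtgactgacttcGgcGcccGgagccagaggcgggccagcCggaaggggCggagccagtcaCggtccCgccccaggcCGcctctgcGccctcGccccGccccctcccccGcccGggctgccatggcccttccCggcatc
Taf9: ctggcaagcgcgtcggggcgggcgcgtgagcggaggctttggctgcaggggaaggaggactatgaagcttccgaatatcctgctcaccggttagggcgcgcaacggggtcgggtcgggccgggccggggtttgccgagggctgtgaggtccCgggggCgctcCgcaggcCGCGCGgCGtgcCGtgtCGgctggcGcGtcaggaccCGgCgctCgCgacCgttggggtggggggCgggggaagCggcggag
Kmt2a: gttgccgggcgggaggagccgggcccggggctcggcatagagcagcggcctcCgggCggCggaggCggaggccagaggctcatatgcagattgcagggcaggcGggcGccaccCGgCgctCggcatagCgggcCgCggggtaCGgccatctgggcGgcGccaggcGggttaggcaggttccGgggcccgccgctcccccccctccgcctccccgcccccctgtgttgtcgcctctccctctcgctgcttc
Nr4a2: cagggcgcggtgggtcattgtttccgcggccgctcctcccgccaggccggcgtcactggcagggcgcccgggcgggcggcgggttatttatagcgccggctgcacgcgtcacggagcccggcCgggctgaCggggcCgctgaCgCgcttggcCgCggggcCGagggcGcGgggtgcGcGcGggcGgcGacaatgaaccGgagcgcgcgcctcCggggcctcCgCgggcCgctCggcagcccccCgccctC
In the other group, Foxa2 encodes a forkhead factor of the ventral midbrain (chr2:147871685-147871934, minus strand), Hoxd1 a homeobox factor of body patterning (chr2:74600787-74601036, plus strand), Dnmt3a a de novo DNA methyltransferase (chr12:3806910-3807159, plus strand) and Eprs a transfer RNA synthetase (chr1:187186673-187186922, plus strand).
Foxa2: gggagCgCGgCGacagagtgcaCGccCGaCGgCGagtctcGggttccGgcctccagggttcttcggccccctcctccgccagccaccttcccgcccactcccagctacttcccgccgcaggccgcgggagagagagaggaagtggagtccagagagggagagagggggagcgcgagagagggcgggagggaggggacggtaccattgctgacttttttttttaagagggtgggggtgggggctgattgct
Hoxd1: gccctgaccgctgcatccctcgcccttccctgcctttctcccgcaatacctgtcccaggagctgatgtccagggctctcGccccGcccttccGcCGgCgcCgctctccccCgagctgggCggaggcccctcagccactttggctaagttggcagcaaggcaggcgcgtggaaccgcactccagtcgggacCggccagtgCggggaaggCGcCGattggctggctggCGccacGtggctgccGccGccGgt
Dnmt3a: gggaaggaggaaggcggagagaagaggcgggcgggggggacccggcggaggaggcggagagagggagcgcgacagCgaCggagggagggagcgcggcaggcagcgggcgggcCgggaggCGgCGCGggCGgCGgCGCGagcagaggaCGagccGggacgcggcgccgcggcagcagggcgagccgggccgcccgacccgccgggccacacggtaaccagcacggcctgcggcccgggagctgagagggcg
Eprs: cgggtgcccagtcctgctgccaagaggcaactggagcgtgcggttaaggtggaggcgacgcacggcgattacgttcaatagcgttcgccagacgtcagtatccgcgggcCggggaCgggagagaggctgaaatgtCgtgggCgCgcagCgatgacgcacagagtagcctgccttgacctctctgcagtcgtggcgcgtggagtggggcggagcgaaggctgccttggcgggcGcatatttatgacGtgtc
The 2 groups were alike to the eye, with 20 to 44 CpGs in the 250 bases of the unmethylated promoters shown and 20 to 40 in those of the others. The cluster at Taf9 held 25 covered positions within 92 bp. The cluster at Dnmt3a reached beyond the printed bases and held 80 positions in 531 bp.

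The levels by which clusters were chosen set iPSCs and mdDA neurons apart from the remaining libraries. Of all clusters, 91.2% were under 10% in iPSCs and 88.2% in mdDA neurons, while 56.2% were so in iPSC-DA neurons and 56% in NESTIN-GFP precursors. Of the 13065 clusters that were low in both iPSCs and mdDA neurons, 50.6% were low in all 4 libraries, 1736 were high in NESTIN-GFP precursors alone, 1689 in iPSC-DA neurons alone and 3029 in both. These counts follow from the rule and are given as a description. Unmethylated clusters had median levels of 3.51% in iPSCs, 2.63% in NESTIN-GFP precursors, 4.31% in iPSC-DA and 4.28% in mdDA neurons. Other clusters had medians of 4.70%, 17.7%, 33.7% and 5.76% in the same order.

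**Figure D1:**
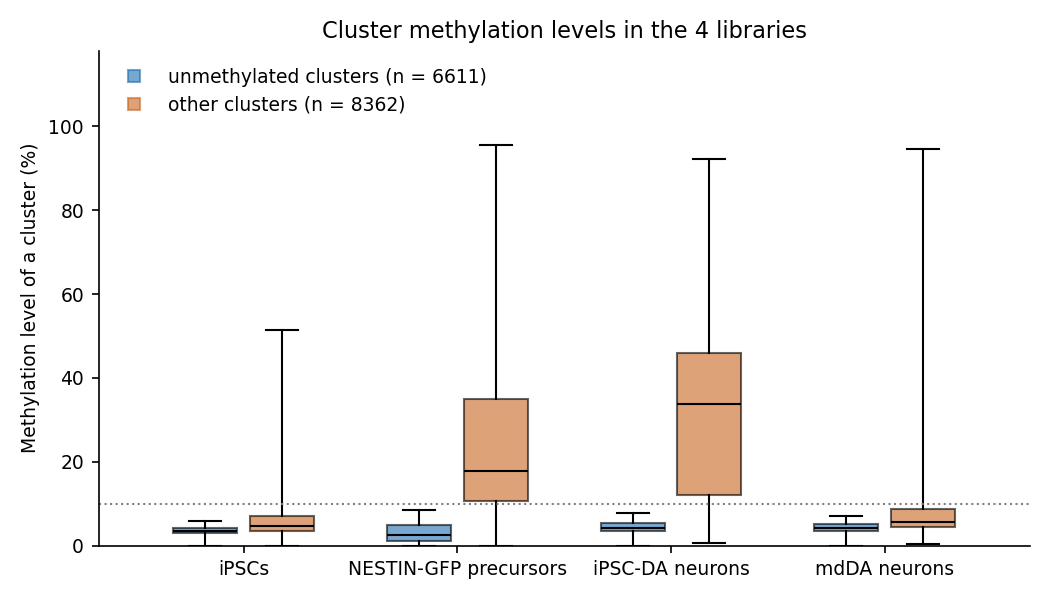
Methylation level of CpG clusters (y axis, %) in the 4 libraries (x axis) for unmethylated and other clusters; lines are medians, boxes quartiles, whiskers the minimum and the 95th percentile, and the dotted line the 10% limit. Unmethylated clusters had medians of 2.63% to 4.31%, and other clusters reached medians of 17.7% for the precursors and 33.7% for iPSC-DA neurons.

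Within the range that the rule allowed, levels differed between unmethylated clusters. The highest of a cluster's 4 levels had a median of 5.12% (quartiles 4.08% and 6.67%), and it stayed under 5% in 3131 clusters, or 47.4%. The highest level was that of iPSC-DA neurons in 2382 clusters, of mdDA neurons in 2244, of NESTIN-GFP precursors in 1664 and of iPSCs in 321. NESTIN-GFP precursors also gave the lowest of the 4 levels in 4054 clusters, and 556 clusters had no methylated call there. That library had a median of 471 calls per unmethylated cluster, against 2398 in iPSCs, 2839 in iPSC-DA and 2541 in mdDA neurons.

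The 10% limit fell within a continuous range of values. The highest level lay between 8% and 10% in 796 unmethylated clusters, and it lay between 10% and 12% in 566 other clusters. The 5 clusters just inside the limit with at least 20 positions were all highest in NESTIN-GFP precursors. One of these was at the promoter of Ccm2, a gene of vascular integrity (chr11:6446793-6446999), with 3.16% in iPSCs, 9.97% in NESTIN-GFP precursors, 4.72% in iPSC-DA and 4.86% in mdDA neurons, and a Wilson 95% interval of 7.07% to 13.9% for the highest. Just outside, the cluster at Insig1, a regulator of cholesterol synthesis (chr5:28397744-28397947), had 3.08%, 10% (7.01% to 14.1%), 3.41% and 4.31%. The cluster at Tarbp1, an RNA methyltransferase gene (chr8:128998891-128999059), was just outside through iPSC-DA neurons, with 4.94%, 0%, 10.02% (9.05% to 11.1%) and 5.82%. The intervals of these clusters crossed the limit, so that their place on either side of it was within counting error, which is all that these intervals cover.

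Unmethylated clusters were richer in covered CpGs. They held a median of 23 positions (quartiles 15 and 36), and other clusters 16 (12 and 25). Distinct CpG sites, with the strands of a CpG counted once, had medians of 19 and 14. The median number of positions was higher in unmethylated clusters on 19 of 19 autosomes, with ratios from 1.29 to 1.63.

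The sites also stood closer together. The mean spacing of neighbouring sites in a cluster had a median of 10.4 bp in unmethylated and 12.5 bp in other clusters, and it was smaller on 19 of 19 autosomes. Site density had medians of 10.1 and 8.48 sites per 100 bp. The length of the clusters differed little, with median spans of 201 bp and 190 bp. The span ratio was above 1 on 15 of 19 autosomes and fell below 1 under 3 other settings, a minimum of 10 calls (0.945), at least 20 positions (0.970) and a limit of 5% (0.979), so it has no fixed direction.

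The share of unmethylated clusters rose in each step of size. It was 31.2% (Wilson 95% interval 29.9% to 32.4%) in clusters of 10 to 14 positions, 49.5% (47.8% to 51.3%) in those of 20 to 29 and 65.2% (61.7% to 68.5%) in those of 60 or more. By library, the share under 10% between the smallest and the largest class went from 41.6% to 80.2% in NESTIN-GFP precursors, and the iPSC-DA share went from 45.9% to 66.9%. By spacing, 57.5% (53.6% to 61.2%) of clusters with sites under 6 bp apart were unmethylated and 11.8% (10.2% to 13.7%) of those with sites at least 20 bp apart. Intervals here treat clusters as independent, which neighbours are not.

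Depth moved with size and membership. Unmethylated clusters had medians of 106 calls per position in iPSCs, 19.3 in NESTIN-GFP precursors, 123 in iPSC-DA and 106 in mdDA neurons, against 88.7, 18.8, 101 and 93.6 in other clusters. When clusters were divided into 4 equal classes by calls per position in NESTIN-GFP precursors, the shallowest library, the shares unmethylated were, from low to high depth, 39.8%, 46.3%, 49.6% and 41.0%. In each of the 4 classes the share was higher in clusters of at least 20 positions (48.3% to 58.0%) than in smaller ones (30.6% to 37.9%).

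**Figure D2:**
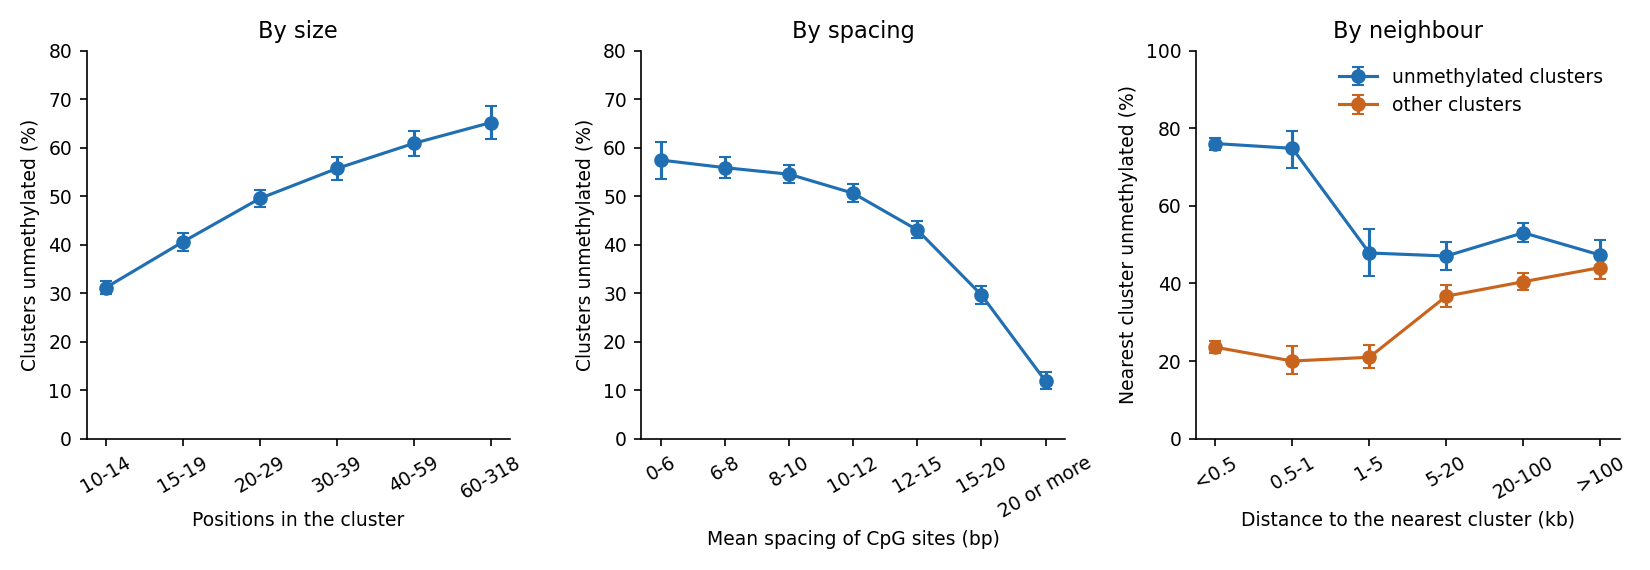
Share of clusters that were unmethylated (y axis, %) by number of positions and by mean spacing of CpG sites, and share of clusters whose nearest cluster was unmethylated by distance (kb), with Wilson 95% intervals. The share rose from 31.2% to 65.2% with size and fell to 11.8% at the widest spacing, and the gap between unmethylated and other clusters by neighbour was 76.1% against 23.6% under 0.5 kb.

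The clusters with the most positions showed the same low levels over long stretches. A cluster of 163 positions and 1373 bp (chr8:125565401-125566773) lay at the promoter of Ankrd11, a chromatin regulator, and had 3.37% in iPSCs, 1.96% in NESTIN-GFP precursors, 7.04% in iPSC-DA and 3.91% in mdDA neurons. A cluster of 154 positions at Clock, a transcription factor of the circadian rhythm (chr5:76732758-76733932), had 3.00%, 1.96%, 3.54% and 3.50%. A cluster of 147 positions on chromosome 13 (chr13:48965549-48966427) had levels of 2.47% to 3.50%, and a pair on chromosome 18, with 164 and 146 positions, had levels of 1.03% to 4.78%. Of the clusters with at least 60 positions, the lowest summed level belonged to that at Kmt5a, the histone H4 lysine monomethyltransferase (chr5:124895301-124895681), with 1.96%, 0%, 2.57% and 2.84%. Its 1006 calls in NESTIN-GFP precursors held no methylated call, which allows up to 0.380% by the Wilson interval.

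The methylated calls that remained in unmethylated clusters were unevenly spread over positions. Of their 187869 positions, 52.1% had no methylated call in iPSCs, 73.3% in NESTIN-GFP precursors, 46.1% in iPSC-DA and 43.2% in mdDA neurons, at median depths of 104, 16, 115 and 94 calls. Positions at 50% or more numbered 46, 3140, 361 and 177, and 3 positions were that high in all 4 libraries. Clusters with every position under 20% in every library numbered 361, or 5.46%. The positions' levels followed one another between the 3 Pitx3 Gfp/+ libraries (Pearson's r across positions 0.82 to 0.88) and much less between each of these and NESTIN-GFP precursors (0.15 to 0.21). The positions share fragments and sequence, and r is given as a description. The parts in r of the lower depth of NESTIN-GFP precursors and of the cut-site positions described next were not tested.

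Methylated calls were concentrated at the MspI cut in iPSCs, iPSC-DA and mdDA neurons where this could be measured. The sequence is known where a cluster was matched to a promoter (the match is described with the genes), and positions there could be placed by their distance from the cut, which is the start of a read. The CpG of the cut site had a pooled level of 16.5% in iPSCs, 6.70% in NESTIN-GFP precursors, 18.3% in iPSC-DA and 18.4% in mdDA neurons. From base 5 to base 39 after the cut, levels were 0.589%, 2.52%, 1.02% and 0.943%. Levels were not corrected for incomplete bisulfite conversion, so values this low may include unconverted cytosines. Among positions within 40 bases of a cut, cut-site CpGs were 14.7% of positions and held 81.9%, 26.1%, 75.1% and 77.4% of the methylated calls. Other clusters had similar levels at the cut in iPSCs (17.1%) and mdDA neurons (20.2%), also far above the 1.29% and 2.46% of their later bases.

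The Psmc6 sequence printed above, with 5 CCGG sites in 250 bases, shows how often a window of this kind holds such positions. In 1321 clusters with at least 80% of their positions in a matched window, leaving out the cut sites, a step added after seeing the data, lowered the median levels of unmethylated clusters from 3.43% to 0.495% in iPSCs, from 2.26% to 1.63% in NESTIN-GFP precursors, from 4.16% to 0.884% in iPSC-DA neurons and from 4.14% to 0.838% in mdDA neurons. It made 792 of these clusters unmethylated in place of 747, with 48 gained and 3 lost. Membership thus changed for 51 clusters, while most of the residual level outside NESTIN-GFP precursors was at cut-site positions.

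**Figure D3:**
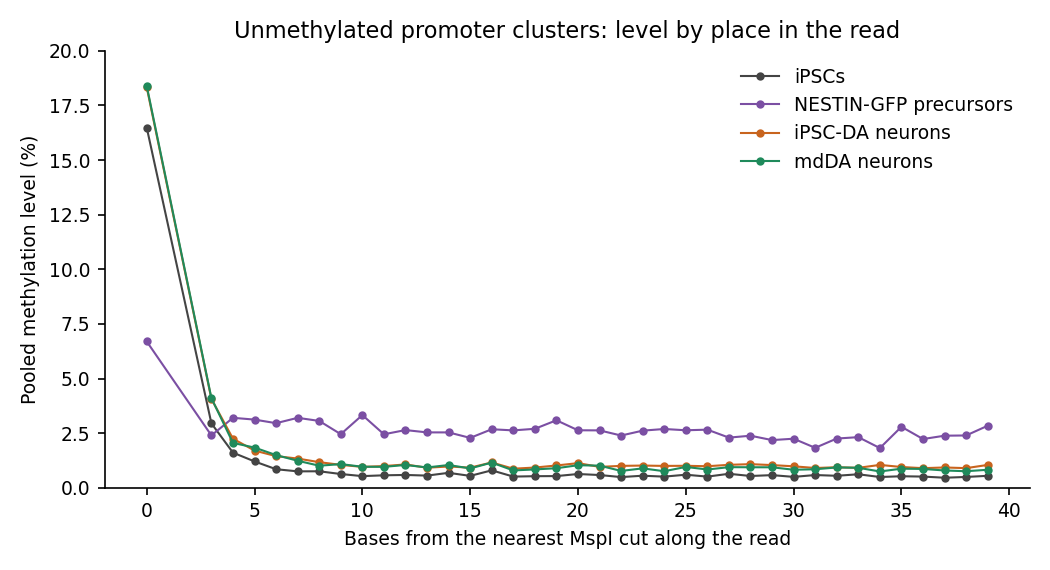
Pooled methylation level (y axis, %) of positions in unmethylated clusters matched to a promoter, by bases from the nearest MspI cut along the read (x axis), with 1 line per library. The level at the cut (base 0) was 16.5% to 18.4% in the 3 Pitx3 Gfp/+ libraries and 6.70% in NESTIN-GFP precursors, and it was 0.589% to 2.52% pooled over bases 5 to 39.

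Not every position entered the rule. Those left out lie inside a cluster's span and had at least 5 calls in the library in question but not in all 4. In unmethylated clusters their pooled levels were 6.60% in iPSCs (34888 positions), 2.29% in NESTIN-GFP precursors (84432 positions), 7.72% in iPSC-DA (28595 positions) and 7.60% in mdDA neurons (30451 positions). In other clusters they were 7.89%, 28.8%, 29.4% and 9.57%. Positions used by the rule had pooled levels of 3.56%, 3.14%, 4.39% and 4.29% in unmethylated clusters, so those left out were higher in 3 of the 4 libraries. The gap between unmethylated and other clusters at positions left out was wide in NESTIN-GFP precursors and iPSC-DA neurons and small in iPSCs and mdDA neurons.

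Up to 1000 bp from the borders of unmethylated clusters, mean levels were lower than beside other clusters. These are unweighted means over positions and cannot be set directly against the pooled levels inside clusters. Positions 100 to 1000 bp from a border and in no cluster had mean levels of 6.86% in iPSCs, 24.0% in NESTIN-GFP precursors, 11.6% in iPSC-DA and 10.4% in mdDA neurons beside unmethylated clusters (19378 positions). Beside other clusters (25706 positions) the means were 12.6%, 41.7%, 38.9% and 19.8%. The flanks of unmethylated clusters were lower on 19 of 19 autosomes in each library, by 23.8 to 33.1 points in iPSC-DA neurons and by 5.29 to 16.6 points in mdDA neurons. From iPSCs to iPSC-DA neurons, 7.76% of flank positions beside unmethylated clusters and 56.7% of those beside other clusters gained at least 20 points. The same shares were 34.3% and 54.3% for NESTIN-GFP precursors and 5.13% and 13.5% for mdDA neurons.

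The difference held within size classes up to 1000 bp, and its direction was lost farther out. In mdDA neurons, flanks of clusters with 10 to 14 positions had means of 10.3% and 25.2%, and those of clusters with 60 or more positions 10.3% and 16.1%. With at least 20 positions required of every cluster, the mdDA difference was -3.77 in place of -9.41 points. By distance, mdDA means were 8.44% beside unmethylated and 16.5% beside other clusters at 100 to 250 bp. They were 17.1% and 28.0% at 500 to 1000 bp, so the difference did not shrink over this range. At 2 to 5 kb the order was turned. The flanks of unmethylated clusters had 42.7%, 80.9%, 71.7% and 68.4% in the same library order, and those of other clusters 42.3%, 74.3%, 64.7% and 56.7%. At 1 to 2 kb the order depended on the library, with 26.2% beside unmethylated and 33.0% beside other clusters in iPSCs and 47.7% and 44.6% in mdDA neurons.

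**Figure D4:**
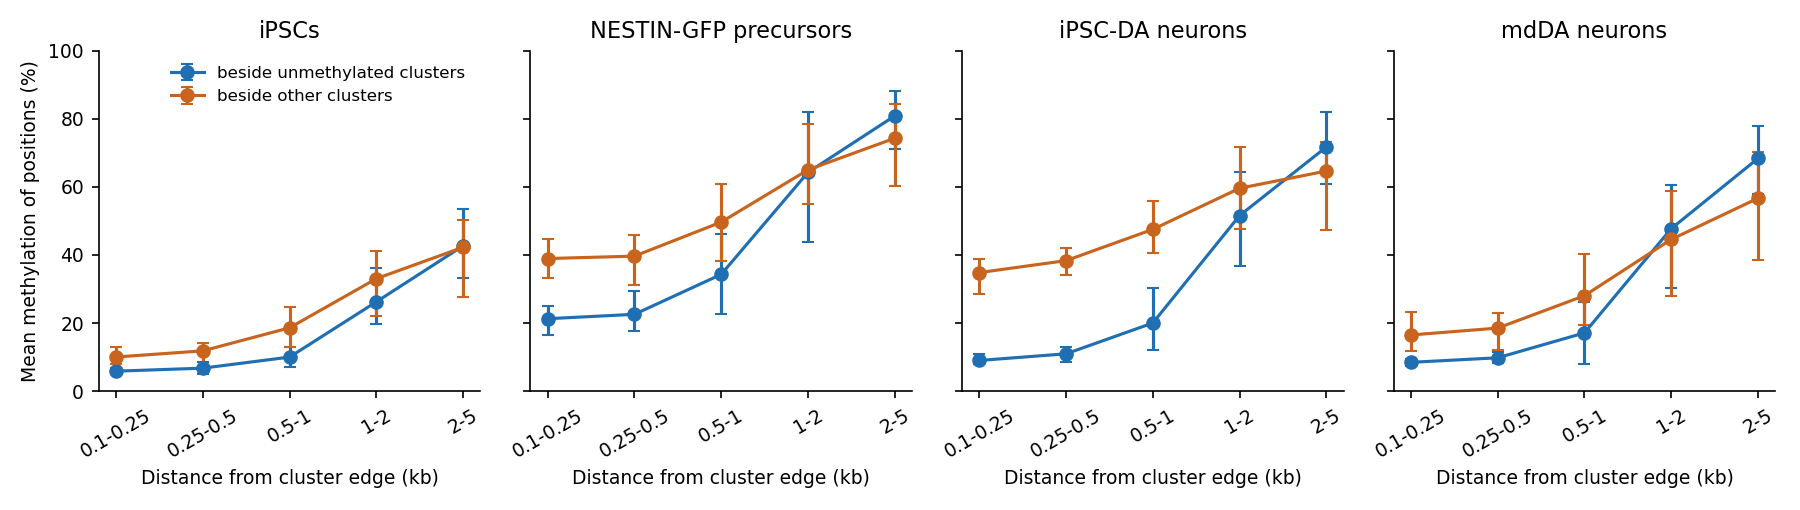
Mean methylation of positions outside clusters (y axis, %) by distance from the cluster edge (x axis, kb) in the 4 libraries, beside unmethylated and other clusters; bars span the lowest and highest autosome mean. In iPSC-DA neurons the first bin had 8.99% beside unmethylated and 34.8% beside other clusters, and at 2 to 5 kb the means were 71.7% and 64.7%.

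Unmethylated clusters stood next to one another. The nearest cluster was itself unmethylated for 63.3% of unmethylated clusters and for 31.2% of other clusters, and the share was higher for unmethylated clusters on 19 of 19 autosomes, by 23.1 to 39.5 points. With a limit of 5% in place of 10%, the shares were 32.8% and 18.8%. Under 500 bp the shares were 76.1% (Wilson 95% interval 74.5% to 77.6%) and 23.6% (22.1% to 25.1%). At 20 to 100 kb they were 53.1% and 40.5%, and beyond 100 kb 47.3% (43.4% to 51.3%) and 44.1% (41.1% to 47.2%), where the intervals overlap. Clusters close to each other can be pieces of 1 CpG island divided by uncovered DNA. Of 2292 groups of exactly 2 clusters less than 1000 bp apart, 36.6% were both unmethylated and 25.3% were mixed. Larger groups were mixed more often, in 32.3% of 555 groups of 3 clusters and 44.2% of 165 groups of 4 or more. A group of more clusters is more easily mixed, so this rise does not measure weaker agreement between neighbours.

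On the scale of chromosomes the share varied little. It ran from 40.1% on chromosome 7 (431 of 1076) to 54.7% on chromosome 16 (239 of 437), with a median of 43.9% and an SD of 3.33 points over 19 autosomes. Chromosome 16 also had the highest shares under 10% for NESTIN-GFP precursors (65.0%) and for iPSC-DA cells (67.5%). It held the longest run of consecutive unmethylated clusters, 25 clusters over 13409634 bp (chr16:44139777-57549410) with no other cluster between them. Over 283 windows of 5 Mb with at least 20 clusters, the median share was 44.1% (quartiles 37.5% and 52.3%). The extremes, over few clusters each, were 13.8% (4 of 29, chromosome 2 at 145 to 150 Mb) and 76.2% (16 of 21, chromosome 1 at 95 to 100 Mb).

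The position of a cluster on its chromosome made little difference. In 5 equal parts of each chromosome, from its start to its end, shares were 44.8%, 44.5%, 45.8%, 42.0% and 44.1%. In 4 classes by the number of clusters within 500 kb, they were 42.7%, 46.4%, 45.3% and 41.7%. Differences between these classes were small beside those by size, spacing and nearest cluster.

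Genes were assigned by the pattern of CpG letters, since the files carry no gene names. A RefSeq promoter window, 250 bases before to 50 after a gene's start, was placed where every covered position in it fell on a CpG letter and a single place in the genome qualified. Required positions were those with at least 5 calls in any library, at least 16 of them, a setting chosen after seeing that the 8 positions first planned placed only 42.9% of promoters on their own chromosome. With 16 positions, 98.9% of 5169 placed promoters fell on their own chromosome, and 99.6% of 58885 further positions with fewer calls lay on CpG letters. After those on another chromosome or out of order were dropped, 3300 clusters had a promoter, of which 1895, or 57.4%, were unmethylated. These held 3534 genes, 2042 of them (57.8%) at an unmethylated cluster. A match was found for 28.7% of unmethylated and 16.8% of other clusters, and matched unmethylated clusters had a median of 26 positions against 21.

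Promoters of basic cellular machinery lay on clusters that were low in iPSC-DA neurons without exception among those matched. The lists were chosen with earlier results of these data known and are described by their counts. The 8 housekeeping lists held 383 genes, of which 83 were matched. Of these 83, 52 lay on unmethylated clusters (62.7%, near the 57.8% of all matched genes), and the level in iPSC-DA neurons ran from 1.70% to 9.48%. At 10% or more in that library were 0 of the 83 genes, against 951 of all 3534. The other 31 genes were all at 10% or more in NESTIN-GFP precursors, and 3 of them in mdDA neurons too.

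The proteasome, the complex that degrades ubiquitin-tagged proteins, had 8 of 8 matched genes on unmethylated clusters, where all matched genes had 57.8%. Psmc6 had 3.88% in iPSCs, 2.37% in NESTIN-GFP precursors, 3.98% in iPSC-DA and 4.08% in mdDA neurons, over 25 positions. Psmc2, a second ATPase of its base, had 5.04%, 3.91%, 4.64% and 5.78%. Psmd2, a scaffold subunit, had 4.70%, 1.27%, 5.48% and 5.48%. All 3 were lowest in NESTIN-GFP precursors, as were 61.3% of all unmethylated clusters. Of the remaining proteasome genes, Psmc5 and Psmd5 were lowest there too, while Psma6, Psmc4 and Psmd14 were not.

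Mitochondrial ribosomal proteins had 12 of 16 genes on unmethylated clusters, the spliceosome 9 of 12 and cytosolic ribosomal proteins 9 of 14, counts not far from the 57.8% of all matched genes. Sf3a2, a subunit of the U2 small nuclear ribonucleoprotein, had 2.11%, 1.19%, 2.53% and 2.57% over 35 positions. Rps19, a protein of the small ribosomal subunit, had 2.57%, 6.49%, 3.97% and 4.81%. The matched genes of RNA polymerase II and its general factors were on unmethylated clusters in 6 of 10 cases, including Gtf2b and Polr2e, with no methylated call in NESTIN-GFP precursors, and Taf9, with 2.78%, 0.906%, 3.13% and 3.52%.

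Translation factors (4 of 10), DNA replication (3 of 8) and aminoacyl-tRNA synthetases (1 of 5) had counts below the 57.8% of all matched genes, over few genes each. Each of their genes outside the unmethylated group was high in NESTIN-GFP precursors. Eprs had 3.39%, 63.5% (Wilson 95% interval 55.7% to 70.6%), 8.80% and 5.89%, and the cluster shared by the divergent genes Rars2 and Orc3 had 4.36%, 43.6%, 6.79% and 10.1%. These clusters were small, with 13 positions each, and Eprs had 156 calls in NESTIN-GFP precursors. Over the housekeeping lists, medians were 460.5 calls in that library and 21 positions for genes at unmethylated clusters and 237 calls and 18 positions for the 31 others, and the part of depth in this was not tested.

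Developmental transcription factors were mostly outside the unmethylated group. The Hox and other developmental lists held 205 genes, of which 27 were matched. Of these 27, 3 lay on unmethylated clusters (11.1%, against 57.8% of all matched genes), and 24 were at 10% or more in iPSC-DA neurons. Their median levels were 3.73% in iPSCs, 8.91% in NESTIN-GFP precursors, 36.2% in iPSC-DA and 4.84% in mdDA neurons, against 3.72%, 5.57%, 5.30% and 4.62% over all matched genes. The 3 were Hoxa6, a homeobox factor of the trunk (4.73%, 6.63%, 7.62% and 5.67%), Msx1, a homeobox factor of the dorsal midline and limb (2.96%, 4.75%, 3.88% and 4.55%), and Foxc1, a forkhead factor of mesenchyme and eye (3.28%, 1.48%, 5.36% and 5.10%). Tbx1, a T-box factor of the pharynx, was the highest of the list in iPSC-DA neurons, with 9.36%, 44.7%, 62.9% and 7.60%. Hoxd1, whose sequence is printed above, had 4.76%, 24.5%, 39.9% and 5.26%.

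**Figure D5:**
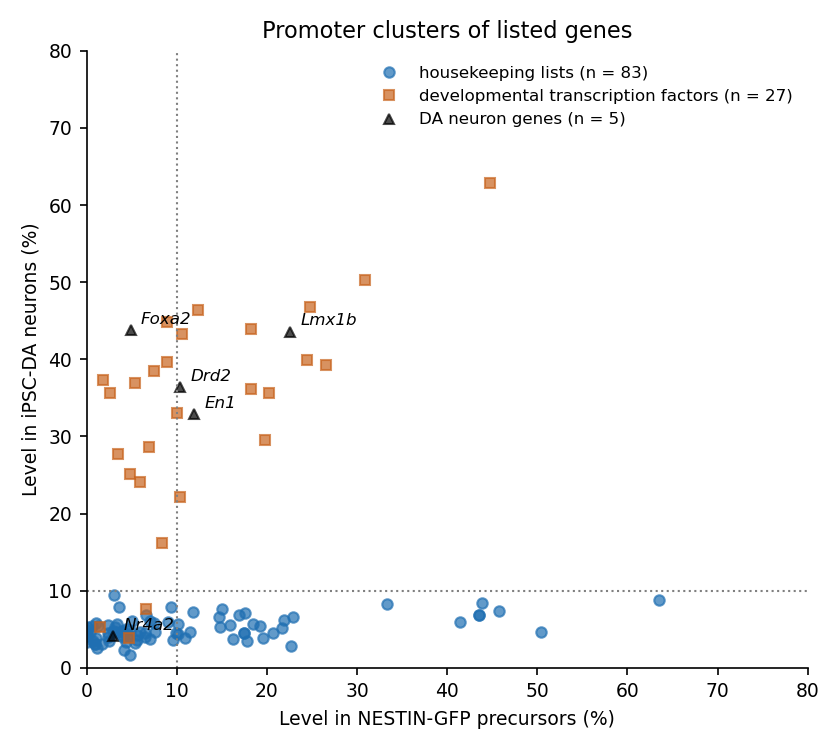
Level of the promoter cluster in NESTIN-GFP precursors (x axis, %) and in iPSC-DA neurons (y axis, %) for every matched gene of the housekeeping lists (n = 83), the developmental transcription factors (n = 27) and the DA neuron genes (n = 5), with dotted lines at 10%. Housekeeping genes lay under 10% on the y axis in all cases, and 24 of the 27 developmental genes lay above it.

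Among genes of DA neurons, 5 of 18 had a matched cluster, and Nr4a2 was the one at an unmethylated cluster, where 57.8% of all matched genes were. Nr4a2 had 3.66% in iPSCs, 2.91% in NESTIN-GFP precursors, 4.11% in iPSC-DA (Wilson 95% interval 3.61% to 4.66%) and 4.57% in mdDA neurons, over 62 positions and 426 bp at its start. Foxa2 had 2.95%, 4.87%, 43.8% (42.2% to 45.4%) and 3.02%. Lmx1b, a LIM homeobox factor of midbrain specification, had 5.55%, 22.6%, 43.6% and 5.80%. Drd2, the D2 dopamine receptor, had 3.49%, 10.4%, 36.4% and 3.66%, and En1, a homeobox factor of midbrain DA neurons, had 4.38%, 12.0%, 32.9% and 4.94%. The 4 genes thus shared the low levels of Nr4a2 in iPSCs and mdDA neurons and were above 10% in iPSC-DA neurons. In NESTIN-GFP precursors 3 of them, Lmx1b, Drd2 and En1, were above 10% too. The intervals of Drd2 (8.10% to 13.2%) and En1 (8.93% to 15.8%) in that library crossed the limit. Clusters in the bodies of these genes are not described by a promoter match.

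Genes that write, read or remove methylation were found on both sides. Uhrf1, the partner that brings DNMT1 to replicated DNA, had 4.69%, 5.57%, 5.18% and 6.42%, and Tet3, a dioxygenase that oxidises methylcytosine, had 4.78%, 5.42%, 5.85% and 7.33%. Dnmt1, the maintenance methyltransferase, missed the limit only in NESTIN-GFP precursors (4.21%, 11.2% with a Wilson 95% interval of 8.80% to 14.2%, 9.01% and 4.90%), and Dnmt3a only in iPSC-DA neurons (2.79%, 5.37%, 17.0% and 3.23%). Of the CXXC readers, Kmt2a had 3.61%, 1.46%, 4.66% and 4.52%, and Kdm2b, which recruits a variant Polycomb complex, had 5.35%, 12.9% (9.94% to 16.6%), 6.71% and 5.74%. The side of the limit on which Dnmt1 and Kdm2b fell was thus within counting error. Polycomb genes had 8 of 11 on unmethylated clusters, against 57.8% of all matched genes, among them Suz12, a core subunit of the histone H3 lysine 27 methyltransferase, with 3.74%, 2.62%, 4.58% and 3.59%. Phf19, an accessory subunit, was high in iPSC-DA neurons, with 2.89%, 14.2%, 32.0% and 3.17%.

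Of the pluripotency and germline genes, 1 of 5 lay on an unmethylated cluster, against 57.8% of all matched genes. This was Klf2, a Krüppel-like factor of the naive pluripotent state, with 5.71%, 0.917%, 6.29% and 7.40%. The germline genes Ddx4, an RNA helicase, Hormad1, a protein of the meiotic chromosome axis, and Mael, a factor of transposon silencing, were the opposite case. They had 7.61% to 12.2% in iPSCs and 73.4% to 93.6% in the other 3 libraries. The remaining matched gene, Fgf4, differed from them, with 4.04%, 18.7%, 45.3% and 4.77%, and was low in mdDA neurons.

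The promoters of unmethylated clusters differed little from the others in base composition. Their GC content had a median of 69.3% against 69.0%, and the ratio of observed to expected CpGs 0.904 against 0.861. The share unmethylated rose with the number of CpGs in the 300 bases, from 42.7% (36.9% to 48.8%) under 20 CpGs to 65.3% (61.5% to 69.0%) at 40 or more. Over all 32851 promoters of the table, medians were 52.7% GC and a ratio of 0.384, so both groups were drawn from the CpG-rich end.

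Some short motifs differed in frequency. The ETS motif CCGGAAGT, read on either strand, was present in 10.9% (Wilson 95% interval 9.60% to 12.4%) of 1895 unmethylated promoter windows and in 5.41% (4.34% to 6.72%) of 1405 others. It was in 1.95% (1.24% to 3.06%) of the 923 windows high in iPSC-DA neurons and in 11.1% (8.59% to 14.3%) of the 467 high in NESTIN-GFP precursors alone. It contains the MspI site CCGG, which bears on coverage in all groups. The YY1 motif AGATGGCGG was in 2.69%, 1.21%, 0.217% (2 of 923 windows) and 3.21% of the same groups. The NRF1 motif GCATGCGC was in 6.54% (5.52% to 7.75%), 4.41% (3.46% to 5.62%), 2.82% and 7.49%. Its intervals for unmethylated and other windows overlapped slightly. The TATA motif TATAAA was in 2.32% of unmethylated and 3.63% of other windows, with overlapping intervals. Among all 32851 promoters, the ETS motif was in 3.89%, YY1 in 1.07%, NRF1 in 2.71% and TATA in 13.6%. The GC box GGGCGG (85.0% and 81.6%), CCAAT (29.1% and 28.3%), the E-box CACGTG (11.3% and 10.6%) and the CRE TGACGTCA (3.75% and 2.78%) were closer, as ratios, between unmethylated and other windows. The CRE was in 1.73% (1.07% to 2.80%) of windows high in iPSC-DA neurons and in 4.71% of those high in NESTIN-GFP precursors alone. In the same 2 groups the GC box was in 82.1% and 80.9%, CCAAT in 25.8% and 33.4%, and the E-box in 9.32% and 13.5%. These are counts of letters and not of bound sites. For ETS, YY1 and NRF1 the share in windows high in NESTIN-GFP precursors alone was near that in unmethylated windows, while TATA was in 4.71% (3.13% to 7.03%) of the former and 2.32% (1.73% to 3.10%) of the latter.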

How the data were processed

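RRBS calls of 4 libraries, 1 per condition, were used. According to the study's methods and the submitters' processing notes, the authors checked 40-base reads with FastQC, trimmed them with Trim Galore (0.3.5) and aligned and called them with Bareback and Bismark (0.10.1). The authors deposited, for each cytosine position, a count of methylated and a count of unmethylated calls, unnormalized, and the percent of methylated calls, which was not used beyond a check. Strands of a CpG are separate positions. The build is not given in the sources used here. Positions reach 197192264 on chromosome 1, which fits NCBIM37 (mm9).

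Clusters and levels were computed from the counts as described in the report. Intervals are Wilson 95% and cover counting error only, since PCR copies are not independent molecules. With 1 library per condition no test was run, and directions are given as the number of the 19 autosomes that show them. RefSeq promoters (GRCm38.p6) were matched by CpG letters, and gene lists were looked up by symbol or unambiguous synonym. Named clusters were the 5 with most positions, 5 just inside and 5 just outside the limit (at least 20 positions) and the 3 with the lowest summed level among those with at least 60, of which the text describes some. Named genes were, per list, up to 3 members with most covered positions and 2 others highest in iPSC-DA neurons, and all genes of the DA neuron, methylation machinery and CpG reader lists. Ddx4 was picked out after its values were seen, and Fgf4 was then added to complete its list. Members and lists were chosen with earlier results of these data known. The code was tested on simulated data and ran in Python 3.11.15 with numpy 2.4.6, pandas 2.3.3, scipy 1.17.1 and numba 0.67.0.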

Additional observations from a re-analysis of the deposited data

Results flagged for a closer look

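The X chromosome was outside the rule, which took autosomes only. Built the same way, it held 232 clusters, of which 5 were under 10% in all 4 libraries. This share of 2.16% (Wilson 95% interval 0.924% to 4.94%) stood far below the 40.1% to 54.7% of the 19 autosomes. By library, 92.2% of X clusters were under 10% in iPSCs, 45.7% in NESTIN-GFP precursors, 19.4% in iPSC-DA and 7.33% in mdDA neurons. The median X level was 4.03% in iPSCs and 22.9% in mdDA neurons. Thus the X was like the autosomes in iPSCs, and mdDA neurons, which on autosomes had 88.2% of clusters under 10%, were the library with the fewest low clusters on the X. There were no control samples in this series, and the sex of the cells was not used here.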

How the results depend on the processing

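With 12 alternatives to the main settings, the number of unmethylated clusters, 6611 of 14973 as reported, moved by over 1.5 times in 2. It was 3888 of 7075 clusters with at least 20 positions per cluster, where fewer clusters qualified. With a limit of 5% it was 3131 of 14973. The ratio of median positions, 1.44 as reported, stayed above 1 in all 12 and came to 1.20 at 10 calls or more, 1.20 with a gap under 50 bp, 1.61 with a gap under 200 bp, 1.14 with at least 20 positions, 1.31 with a limit of 20% and 1.31 without NESTIN-GFP precursors in the rule. The ratio of median spacing, 0.828 as reported, stayed below 1 and was 0.912, 0.761 and 0.920 with a gap under 50 bp, a gap under 200 bp and at least 20 positions, 0.751 with a limit of 5%, and 0.877 and 0.775 without NESTIN-GFP precursors or iPSC-DA neurons in the rule. The ratio of median span, 1.06 as reported, turned to 0.945 with a minimum of 10 calls, 0.970 with at least 20 positions and 0.979 with a limit of 5%, and was 1.15 with strands merged. The share of unmethylated clusters with an unmethylated nearest cluster, 63.3% as reported, became 69.0% at 10 calls or more, 72.8% and 53.2% with gaps under 50 bp and under 200 bp, 68.1% with at least 20 positions, 32.8% and 75.7% with limits of 5% and 20%, 59.0% with unweighted means, 65.8% with libraries thinned to the shallowest, and 78.3% and 64.7% without NESTIN-GFP precursors or iPSC-DA neurons. For other clusters the share, 31.2% as reported, was 18.8% at the limit of 5% and 30.3% to 46.7% under the remaining alternatives. It was below that of unmethylated clusters in all 12. The number of unmethylated clusters changed with these settings as well, so the shares have no common base rate. The flank difference in mdDA neurons was negative in all 12 and moved beyond the spread of autosomes to -3.77 points with at least 20 positions. The cause of these shifts was not tested.

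The share of unmethylated clusters among those matched to a promoter, 45.5% of 479 clusters with the 8 positions first planned, was 59.1% with at least 12, 35.5% of 31 clusters with at least 6, and 57.4% with positions covered in any library, a setting added after seeing the data. No paired analysis was possible because each condition had 1 library. Depth limits mostly the NESTIN-GFP precursors, with a median of 16 calls per position.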
